A study of Chlamydomonas reinhardtii with 9 samples.

Results

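The superoxide dismutase genes of the unicellular green alga Chlamydomonas reinhardtii were examined in 9 polyA RNA-seq libraries. Members were the genes whose symbol in the deposited table was MSD or FSD followed by a number. The rule found 6 of 17609 gene models, namely the iron enzyme gene FSD1 (Cre10.g436050_4532) and the manganese enzyme genes MSD1 (Cre02.g096150_4532), MSD2 (Cre13.g605150_4532), MSD3 (Cre16.g676150_4532), MSD4 (Cre12.g490300_4532) and MSD5 (Cre17.g703176_4532). Tests were limited to genes averaging 1 FPKM or more, which 5 members reached and MSD4 did not. FPKM corrects fragment numbers for the length of the transcript and the size of the library, so levels of different genes can be set side by side within a library. Between libraries the values also depend on how each library was scaled, which is not stated.

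The rescued strain (B6-F_resc) is described as cehc1-1 cells into which a wild-type CEHC1 gene had been introduced. The mutant strain (B6-F) carried cehc1-1, and the wild-type strain (B6) carried an unmutated CEHC1. Each group is 1 strain, so differences between strains other than CEHC1 cannot be told apart from it. The series title concerns a gene that sets copper response regulator levels. Each strain was grown as 3 aerated cultures in TAP, which contains acetate, in days of 14 h light and 10 h dark, and cells were taken after 6 h of light. All strains were handled in the same way, and no agent is named.

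Superoxide dismutases convert superoxide, a by-product of photosynthesis and respiration, to oxygen and hydrogen peroxide, which peroxidases and catalases then remove. Each isoform depends on the metal at its active site. In Chlamydomonas FSD1 encodes the iron enzyme of the chloroplast and MSD1 the manganese enzyme of mitochondria. MSD3 encodes a manganese enzyme of the chloroplast that this alga is known to accumulate when iron is short. Chlamydomonas has no copper and zinc superoxide dismutase, the form found in plants and animals.

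The sum of FPKM over all genes was lower in the mutant, at 592929 to 645234, than in the rescued strain, at 888153 to 1002223, and the wild type, at 970073 to 1108532. Fragment numbers were not given in the tables used, so depth is unknown. The CEHC1 transcript was at 26.5 ± 1.31 FPKM in the rescued strain, 17.2 ± 0.967 FPKM in the mutant and 8.64 ± 1.41 FPKM in the wild type (SD, n = 3 each). The lesion is not described in the labels, so the CEHC1 level does not check them. Differences are on the log2(FPKM + 1) scale, which understates the change of low genes, with adjusted p-values from limma over 11360 genes. A gene is said to have risen or fallen where the adjusted p was under 0.05 and the difference at least 1.

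MSD3 was the one member that fell in the mutant, and it was higher again in the rescued strain. Its libraries held 37.4, 40.0 and 53.9 FPKM in the rescued strain. They held 4.49, 1.47 and 2.94 FPKM in the mutant, against 78.5, 87.1 and 45.7 FPKM in the wild type. Every mutant library lay below every library of the other strains, while the ranges of the rescued strain and the wild type overlapped through wild-type replicate 3. The mutant mean was 2.97 ± 1.51 FPKM, which is 4.22% of the wild-type mean of 70.4 ± 21.8 FPKM (SD, n = 3 each). On the log2 scale the difference was -4.19 (SE 0.30, adjusted p 2.8e-06, limma), the third most negative of the 11360 genes tested. With 0.1 or 5 added to FPKM in place of 1, its rank from the most negative was 7 or 2. Fewer cells with the transcript and less transcript per cell cannot be told apart in these culture RNAs.

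The rescued strain had an MSD3 mean of 43.8 ± 8.89 FPKM, which was 14.7 times the mutant mean. Rescued strain and mutant differed by 3.55 (SE 0.30, adjusted p 4.5e-06, limma), the second most positive of all genes tested. Counted from the most negative, that is rank 11359 of 11360. The rank was 11349 with 0.1 added to FPKM in place of 1, and 11354 with 5 added. The mutant libraries enter both of these comparisons. Against the wild type the rescued strain stood at 62.2% of the mean, a difference of -0.64 (95% interval -1.30 to 0.02, adjusted p 0.11, limma). Without wild-type replicate 3, the lowest MSD3 library of that strain, this difference was -0.92 (adjusted p 0.035). It was still short of the minimum of 1.

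**Figure D1:**
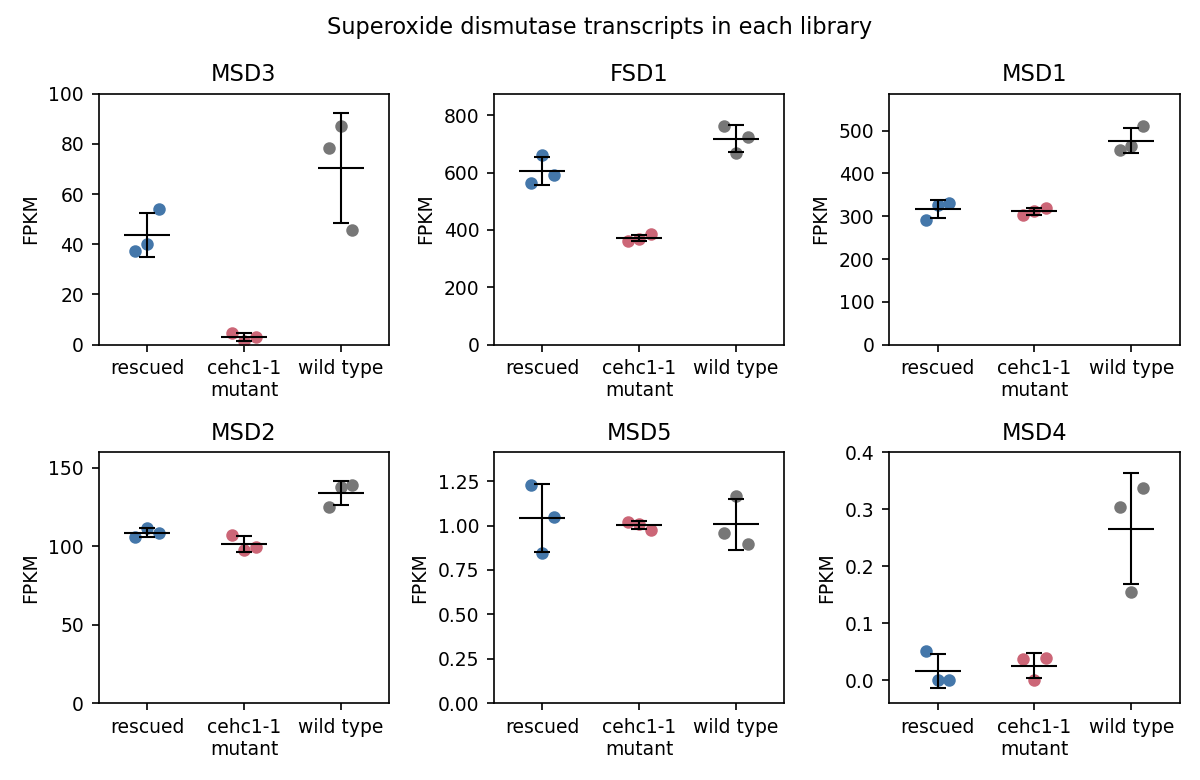
FPKM (vertical axis, from 0 except in the MSD4 panel) of the 6 superoxide dismutase genes in each library of the rescued strain, the cehc1-1 mutant and the wild type; points are libraries, bars the mean and SD of 3. MSD3 is at 1.47 to 4.49 FPKM in the mutant and at 37.4 FPKM or more elsewhere, while MSD1 and MSD2 are lower in the rescued strain and the mutant alike than in the wild type, a direction that turns in the mutant with quantile normalization and with equal sums of FPKM.

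FSD1, the chloroplast iron enzyme gene, was the most abundant member in every library. It had 564, 660 and 593 FPKM in the rescued strain. It had 363, 367 and 386 FPKM in the mutant, against 761, 668 and 724 FPKM in the wild type. No mutant library overlapped with the other strains, and the rescued libraries lay just below those of the wild type. In the mutant FSD1 differed from the wild type by -0.94 (SE 0.08, adjusted p 7.3e-06, limma), close to the minimum of 1 but not past it. The rescued strain exceeded the mutant by 0.70 (SE 0.08, adjusted p 4.7e-05) and differed from the wild type by -0.25 (SE 0.08, adjusted p 0.034).

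MSD1, the mitochondrial manganese enzyme gene, had overlapping levels in the rescued strain and the mutant. Its libraries held 292, 327 and 332 FPKM in the rescued strain. They held 304, 312 and 318 FPKM in the mutant, against 454, 465 and 510 FPKM in the wild type. Rescued and mutant libraries overlapped, and both lay below the wild type. The mutant differed from the wild type by -0.61 (SE 0.08, adjusted p 5.9e-05, limma), a direction that turned with quantile normalization and with equal sums of FPKM. The rescued strain differed from it by -0.59 (SE 0.08, adjusted p 0.00041). The rescued strain differed from the mutant by 0.03 (95% interval -0.14 to 0.19, adjusted p 0.80). With quantile normalization this difference was -0.50 (adjusted p 1.2e-05), and with equal sums it was -0.61 (adjusted p 4.5e-06, limma).

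MSD2, a further manganese enzyme gene, had the same arrangement at a lower level. It had 106, 112 and 108 FPKM in the rescued strain. It had 107, 97.8 and 99.6 FPKM in the mutant, against 125, 138 and 139 FPKM in the wild type. The mutant and rescued libraries overlapped, and all 6 were below the lowest wild-type library. The difference from the wild type was -0.40 (SE 0.07, adjusted p 0.00052, limma) in the mutant, which also turned with these settings, and -0.30 (SE 0.07, adjusted p 0.0073) in the rescued strain. That of the rescued strain did not pass with quantile normalization (adjusted p 0.096) or equal sums (adjusted p 0.097). The rescued strain and the mutant differed by 0.10 (95% interval -0.05 to 0.25, adjusted p 0.24). With quantile normalization this difference was -0.37 (adjusted p 0.0015), and with equal sums it was -0.53 (adjusted p 0.00013, limma).

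MSD5 and MSD4 were near the floor of the data. MSD5 had 1.23, 0.848 and 1.05 FPKM in the rescued strain. It had 1.02, 1.01 and 0.976 FPKM in the mutant, against 0.956, 1.17 and 0.896 FPKM in the wild type. All 3 strains overlapped, and its differences between strains were from -0.001 to 0.03 with adjusted p-values from 0.83 to 0.99 (limma). Their 95% intervals lay within -0.20 and 0.23. For mutant against wild type it was at -0.32 (adjusted p 0.0042) with quantile normalization and at 0.42 (adjusted p 0.0078, limma) with equal sums of FPKM. For rescued strain against mutant it was at 0.23 (adjusted p 0.021) and -0.33 (adjusted p 0.024) under the same settings.

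MSD4 was below the minimum for testing, with 0.051 FPKM in replicate 1 of the rescued strain and a listed 0 in replicates 2 and 3. In the mutant it had 0.037 and 0.039 FPKM in replicates 1 and 3 and a listed 0 in replicate 2. The wild type had 0.303, 0.155 and 0.338 FPKM, above all 6 libraries of the other strains. With no minimum FPKM, the difference from the wild type was -0.30 (SE 0.05, adjusted p 0.0010, limma) in the mutant and -0.31 (SE 0.05, adjusted p 0.0030) in the rescued strain. Adding 1 to values this low sets the size of these differences. The mutant mean was 9.57% of the wild-type mean and the rescued mean 6.46%, ratios that rest on values near 0.

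Over the family, 1 of the 5 tested members fell in the mutant relative to the wild type, against 4.8% of all genes tested, and none rose. With the adjusted p alone, 4 of 5 were lower, against 40.5% of all genes, and the same 4 had every mutant library below every wild-type library, against 43.5%. With quantile normalization 3 were lower, MSD3, FSD1 and MSD5, and 1 was higher, MSD2. With equal sums of FPKM 2 were lower, MSD3 and FSD1, and 3 were higher. In the rescued strain relative to the mutant 1 of 5 rose, against 5.41% of all genes, and 2 of 5 were higher by the adjusted p alone, against 33.1%. Those 2, MSD3 and FSD1, had no overlap, against 37.2% of all genes with every rescued library higher. In this comparison 3 were higher and 2 lower with quantile normalization, and 1 was higher and 3 lower with equal sums. Between rescued strain and wild type none was called, against 2.31% of all genes, and 3 of 5 were lower by the adjusted p alone, against 21.8%. With median ratios 2 were lower in this comparison, and with quantile normalization and with equal sums 1 was, MSD1. FSD1, MSD1 and MSD2 lay below the wild type without overlap, against 26.3%. The median difference of the 5 members was -0.61 for mutant against wild type, where that of all genes was -0.13. It was 0.10 for rescued strain against mutant, where that of all genes was 0.05.

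**Figure D2:**
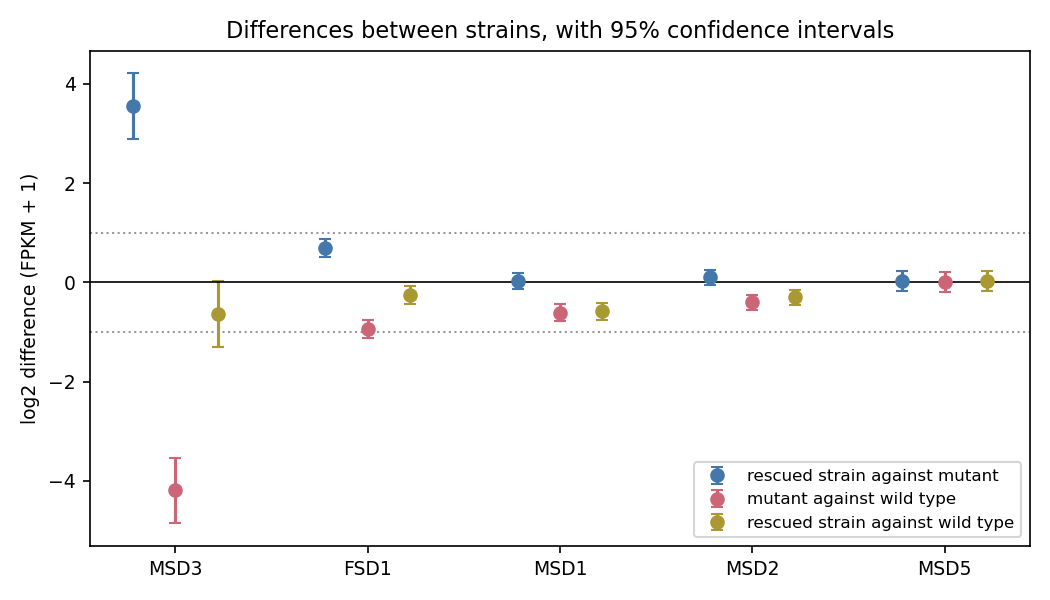
Log2 differences of FPKM + 1 (vertical axis) of the 5 tested members between strains, with 95% confidence intervals from limma; dotted lines mark the minimum difference of 1. MSD3 is at 3.55 for rescued strain against mutant and -4.19 for mutant against wild type, and the points of the other 4 members lie within the dotted lines in all 3 comparisons.

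The lower levels of FSD1, MSD1 and MSD2 in the mutant have to be read against other abundant genes, which were also lower there. The 504 tested genes with a mean of 100 to 1000 FPKM had a median difference of -0.73 between mutant and wild type, and 26.0% of them fell. Among them 29.6% had a more negative difference than FSD1, 64.5% than MSD1 and 81.7% than MSD2. For rescued strain against mutant the median of these genes was 0.52. Of the 504, 16.5% had a lower difference than MSD1 and 19.6% than MSD2, so MSD1 and MSD2 were below most genes of their level there.

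The size of these 3 differences, and the direction of those of MSD1 and MSD2, rested on how libraries were scaled. Rescaling each library by median ratios shifted the median of all genes to -0.01 for mutant against wild type and left FSD1, MSD1 and MSD2 lower in the mutant, by -0.80, -0.47 and -0.26. Quantile normalization left FSD1 lower by -0.31 and turned MSD1 to 0.03 and MSD2 to 0.20. With every library set to the same sum of FPKM, the median of all genes moved to 0.51. FSD1 was then at -0.19, MSD1 at 0.14 and MSD2 at 0.35. MSD3 stood at -4.07, -4.08 and -3.60 under median ratios, quantile normalization and equal sums. The higher FSD1 level in the rescued strain than in the mutant was 0.61, 0.19 and 0.06 under the same settings, and with equal sums it did not pass the test (adjusted p 0.33, limma).

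MSD3 was therefore compared with the rest of the family inside each library, which largely removes the scale of the library. The measure was log2(MSD3 FPKM + 1) minus the mean of the same value over the other 5 members. It was 0.20, 0.27 and 0.70 in the rescued strain. It was -2.46, -3.58 and -2.94 in the mutant, against 0.96, 1.12 and 0.15 in the wild type. The 3 mutant libraries lay below all 6 others, which overlapped among themselves.

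Relative to the other members, MSD3 in the mutant differed from the wild type by -3.74, with p = 0.1 in an exact two-sided permutation test, the smallest p that 3 against 3 libraries can give. Against the 6 libraries of both strains with a wild-type CEHC1, the difference was -3.56 (exact two-sided permutation p = 0.024, the smallest that 3 against 6 can give). MSD3 was singled out with its fall in these libraries known, so neither p is independent evidence. The 6 libraries pool both strains as if they were replicates of each other. In this measure the rescued strain differed from the wild type by -0.35 (exact two-sided permutation p = 0.4). With FSD1, MSD1 and MSD2 as the only other members, the first 2 differences were -3.54 and -3.41.

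FSD1 and MSD1 made up most of the family in each library. These shares are not changed by multiplying a library by 1 factor, but quantile normalization moves them, for MSD3 to means of 4.33% in the rescued strain, 0.270% in the mutant and 5.13% in the wild type. MSD3 made up 3.74%, 3.51% and 4.96% of the summed family FPKM in the rescued strain. It made up 0.577%, 0.189% and 0.364% in the mutant, against 5.52%, 6.40% and 3.21% in the wild type. The mutant shares were below all others, and the rescued shares lay within the range of the wild type.

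Of the family FPKM, FSD1 held 56.2% ± 1.72 in the rescued strain, 47.2% ± 0.599 in the mutant and 51.2% ± 2.24 in the wild type (SD, n = 3 each). Its shares did not overlap between any pair of strains, with 54.5% to 57.9% in the rescued strain, 46.6% to 47.8% in the mutant and 49.1% to 53.6% in the wild type. MSD1 held 29.5% ± 0.931 in the rescued strain, 39.5% ± 0.493 in the mutant and 34.0% ± 1.98 in the wild type. MSD2 held 10.1% ± 0.420, 12.9% ± 0.748 and 9.59% ± 0.692 in the rescued strain, the mutant and the wild type. MSD3 was the smallest of these 4 parts in every library.

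**Figure D3:**
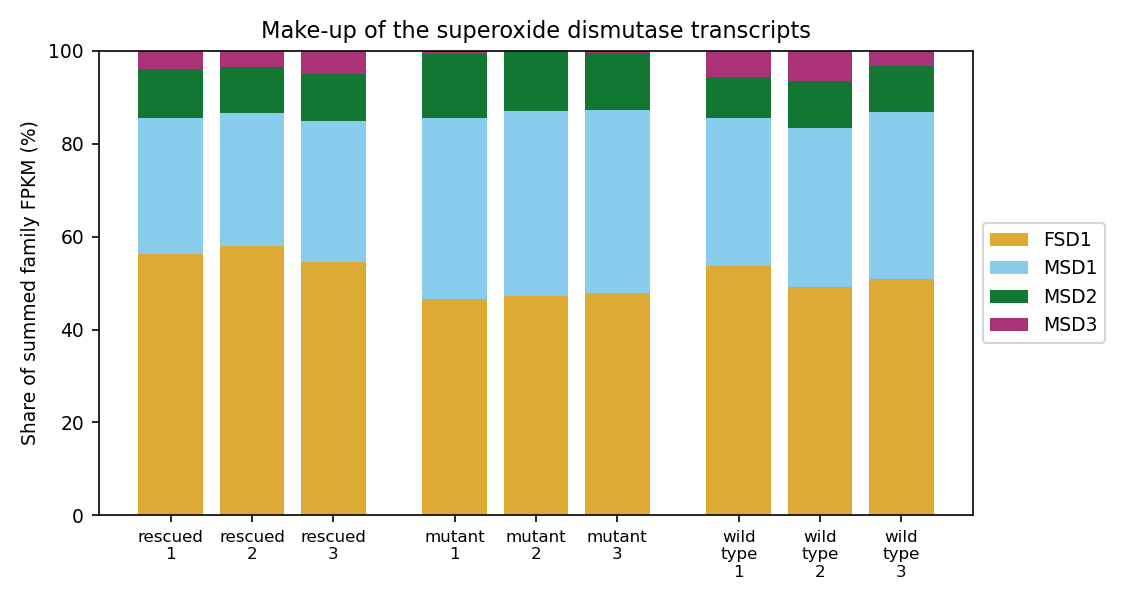
Share of the summed FPKM of the family (vertical axis, percent) held by FSD1, MSD1, MSD2 and MSD3 in each library; MSD4 and MSD5 are too small to draw. MSD3 holds 0.189% to 0.577% in the mutant libraries, and FSD1 holds 46.6% to 47.8% there, its lowest shares.

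The 6 members summed to 1076 ± 70.7 FPKM in the rescued strain, 789 ± 16.1 FPKM in the mutant and 1400 ± 35.3 FPKM in the wild type (SD, n = 3 each). The strains did not overlap in this sum. Of the summed FPKM of all genes, the family held 0.112% ± 0.00310 in the rescued strain, 0.128% ± 0.00324 in the mutant and 0.134% ± 0.00601 in the wild type. On that scale the mutant and wild-type libraries overlapped, at 0.125% to 0.131% against 0.128% to 0.140%.

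MSD3 also varied more between cultures of one strain than most genes of its level. Its coefficient of variation was 20.3% in the rescued strain, 51.0% in the mutant and 31.0% in the wild type. Among tested genes within 2 times its level in the same strain, the medians were 7.61%, 8.14% and 7.80%. MSD3 exceeded 94.9%, 99.3% and 98.5% of them. FSD1, MSD1 and MSD2 had coefficients of variation of at most 8.19% in every strain.

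The genes whose profile over the 9 libraries lay closest to that of MSD3 were found by the root mean square difference between log2(FPKM + 1) profiles, each centred on its own mean. The 6 closest with a symbol were CAH1, LCI1, RHP1, PRX6, PHC66 and LCIC1, at 0.67, 0.77, 0.91, 0.92, 1.01 and 1.06, where the median of 11359 genes was 1.85. CAH1 ranked 7 among all genes, and the 6 genes above it had no symbol. FSD1, the closest member of the family, was at 1.50 and ranked 709.

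CAH1, the periplasmic carbonic anhydrase of the CO2-concentrating mechanism, had 653, 1091 and 789 FPKM in the rescued strain. It had 103, 124 and 141 FPKM in the mutant, against 1247, 945 and 724 FPKM in the wild type. The mutant differed from the wild type by -2.96. LCI1, a low-CO2-induced plasma membrane protein of bicarbonate uptake, had 4.05, 19.6 and 17.3 FPKM in the rescued strain. It had 0.0816, 0.356 and 0.231 FPKM in the mutant, against 59.3, 54.5 and 13.3 FPKM in the wild type. Like MSD3, both were lowest in replicate 3 among the wild-type libraries, and LCI1 varied more than MSD3, with a coefficient of variation of 59.7% there.

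RHP1, a Rhesus-type membrane protein, had 156 ± 4.38 FPKM in the rescued strain, 26.3 ± 0.358 FPKM in the mutant and 125 ± 9.21 FPKM in the wild type (SD, n = 3 each). PHC66, a pherophorin gene, had 41.7 ± 5.94, 6.05 ± 1.52 and 23.6 ± 3.17 FPKM in the rescued strain, the mutant and the wild type. LCIC1, a low-CO2-induced chloroplast protein, had 458 ± 120, 127 ± 25.8 and 515 ± 127 FPKM in the same strains. These genes were chosen for their likeness to MSD3 in the same 9 libraries, so low values in the mutant follow from the choice. The choice also favours genes that, like MSD3, were low in wild-type replicate 3. No test of them is given, except for PRX6 below as a gene of the peroxide list. The rescued strain differed from the wild type by 0.32 for RHP1, 0.50 for PRX6 and 0.79 for PHC66, where MSD3 was at -0.64. LCI1, CAH1 and LCIC1 had the direction of MSD3, at -1.55, -0.20 and -0.17.

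**Figure D4:**
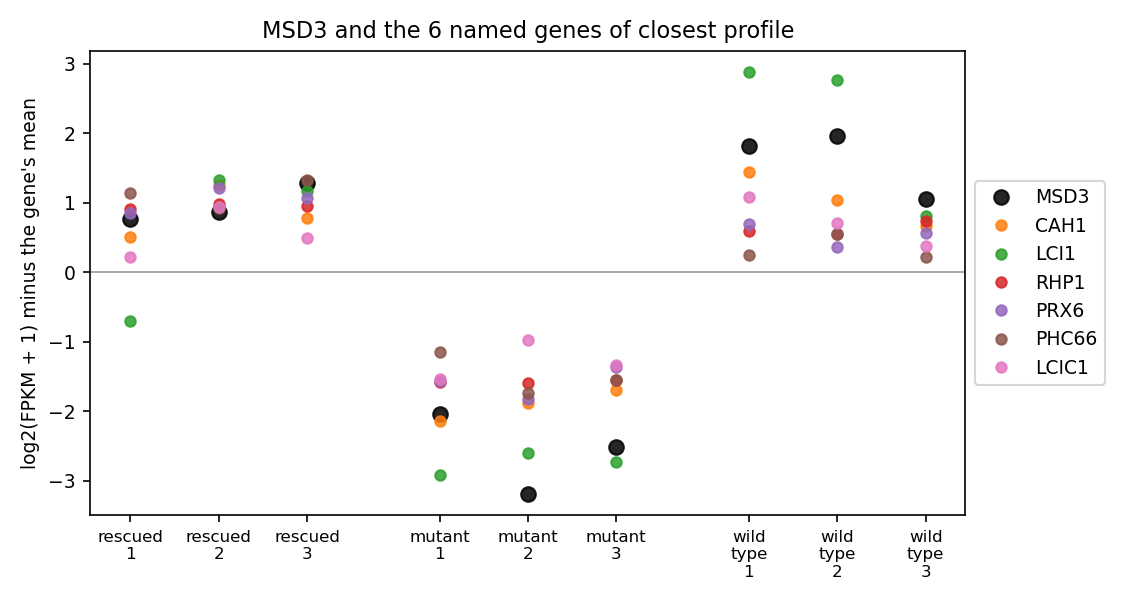
Log2(FPKM + 1) of MSD3 and the 6 closest genes with a symbol, minus each gene's mean over the 9 libraries (vertical axis), for replicates 1 to 3 of each strain. All 7 genes are below their mean in every mutant library, and wild-type replicate 3 is the lowest wild-type library for MSD3, CAH1, LCI1, PHC66 and LCIC1. The choice of genes by likeness over the 9 libraries favours both patterns.

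Hydrogen peroxide, the product of these enzymes, is removed by peroxiredoxins, glutathione peroxidases, catalases and the ascorbate and glutathione system. Of 23 genes listed for it, APX2, APX4 and DHAR1 were not matched by symbol, and the other 20 were tested. In the mutant 4 fell relative to the wild type, against 4.8% of all genes tested, and none rose. By the adjusted p alone 18 of 20 were lower, against 40.5% of all genes, and 1, VTC2 of ascorbate synthesis, was higher, against 25.8%. The median difference was -0.63, where that of all genes was -0.13. It was -0.49 with median ratios and -0.27 with quantile normalization, but 0.10 with equal sums of FPKM, where that of all genes was 0.51. Under these 3 scalings 2, 2 and 1 members fell, and 15, 11 and 6 were lower by the adjusted p alone. By the same test 1, 3 and 9 were higher, so with equal sums more members were higher than lower, and 1 rose. Level matters here too, as wild-type means ran from 4.98 FPKM for CAT2 to 2276 FPKM for PRX1. As deposited, the median difference of tested genes was 0.04 at 1 to 10 FPKM, -0.42 at 10 to 100 FPKM and -0.73 at 100 to 1000 FPKM. Whether the list differs from genes of matched level was not tested.

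PRX6, a peroxiredoxin gene that was also among those closest to MSD3, had the largest difference of the list. It had 283, 363 and 329 FPKM in the rescued strain. It had 52.1, 43.6 and 60.4 FPKM in the mutant, against 253, 202 and 231 FPKM in the wild type. The mutant libraries stood apart from all others, with a difference from the wild type of -2.12 (SE 0.13, adjusted p 1.4e-06, limma). The rescued strain exceeded the mutant by 2.62 (SE 0.13, adjusted p 2.3e-07).

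GPX3, of the glutathione peroxidase family, had 11.6, 14.1 and 9.60 FPKM in the rescued strain. It had 4.96, 5.88 and 4.51 FPKM in the mutant, against 17.1, 17.5 and 17.3 FPKM in the wild type. The 3 strains did not overlap, and the mutant differed from the wild type by -1.59 (SE 0.12, adjusted p 4.5e-06, limma). The rescued strain rose by 1.05 over the mutant (adjusted p 5.2e-05), a call lost with median ratios (0.98), with equal sums (0.50), with a pseudocount of 5 (0.72), without mutant replicate 3 (0.98) and without rescued replicate 2 (0.92). With equal sums the fall in the mutant was also short of the minimum, at -0.93.

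The peroxiredoxin genes PRX5 and PRX3 also fell in the mutant, by differences of -1.05 (SE 0.08, adjusted p 4.0e-06) and -1.03 (SE 0.11, adjusted p 2.0e-05, limma). Both were close to the minimum, and both calls were lost with every rescaling and without wild-type replicate 3 (-0.99 and -0.98). The call of PRX3 was also lost with a pseudocount of 5 (-0.96). In the rescued strain relative to the mutant, 2 list members rose, against 5.41% of all genes, and 1 fell, against 3.77%. The one that fell was CAT2, a catalase gene, at 2.01 ± 0.535 FPKM in the rescued strain, 5.72 ± 0.797 FPKM in the mutant and 4.98 ± 0.899 FPKM in the wild type (SD, n = 3 each). Its difference of rescued strain from mutant was -1.17 (SE 0.15, adjusted p 9.0e-05), and -0.61 with a pseudocount of 5.

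**Figure D5:**
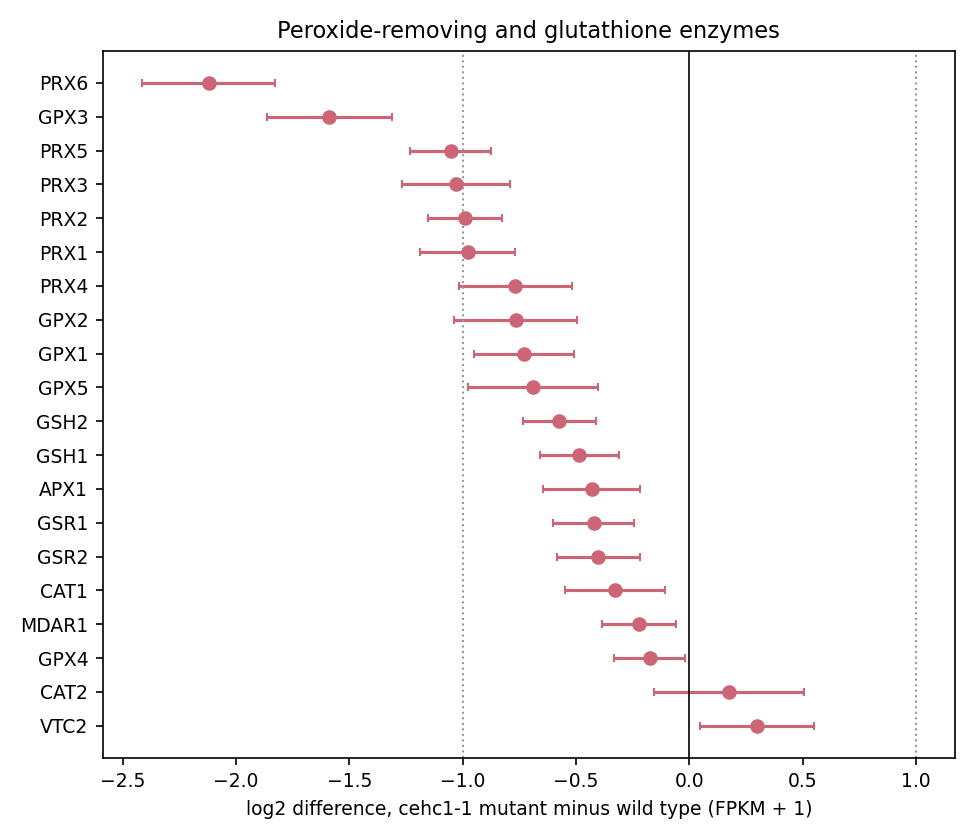
Log2 differences of FPKM + 1 between cehc1-1 mutant and wild type (horizontal axis) of the 20 tested peroxide-removing and glutathione genes, with 95% confidence intervals from limma; dotted lines mark the minimum difference of 1. PRX6, at -2.12, and GPX3, at -1.59, lie farthest below the line, and 18 of the 20 are below 0, where 9 are with equal sums of FPKM.

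MSD3 is known for its response to iron, so 10 genes of iron uptake, deficiency and storage were examined, of which 7 were tested. In the mutant 1 rose and 1 fell relative to the wild type, against 4.6% and 4.8% of all genes tested. The median difference was -0.38 as deposited and -0.24 with median ratios, but 0.19 and 0.37 with quantile normalization and equal sums. The member that rose was IRT2, a ZIP-family metal transporter gene, at 0.127 ± 0.042 FPKM in the rescued strain, 5.40 ± 0.522 FPKM in the mutant and 0.211 ± 0.090 FPKM in the wild type (SD, n = 3 each). It differed between mutant and wild type by 2.40 (adjusted p 2.7e-08, limma), and by 0.996 with a pseudocount of 5, where the call was lost. FER2, FRE1 and IRT1 were below the minimum for testing.

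FEA1, which encodes an iron-assimilation protein of the periplasm, had 17.4, 12.3 and 43.6 FPKM in the rescued strain. It had 12.1, 19.1 and 15.1 FPKM in the mutant, against 22.2, 52.2 and 44.5 FPKM in the wild type. Rescued and mutant libraries overlapped, unlike those of MSD3. Its fall in the mutant, -1.24 (SE 0.42, adjusted p 0.022, limma), was lost with quantile normalization (adjusted p 0.089), with equal sums (adjusted p 0.27) and without any of 4 libraries. These were wild-type replicate 2 (adjusted p 0.084), wild-type replicate 3 (0.070), mutant replicate 1 (0.074) and mutant replicate 3 (0.051).

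FEA2, a related gene, had 4.08, 7.61 and 4.45 FPKM in the rescued strain. It had 0.941, 0.948 and 0.768 FPKM in the mutant, against 3.10, 3.39 and 0.922 FPKM in the wild type. It rose in the rescued strain relative to the mutant by 1.72 (SE 0.29, adjusted p 0.00058, limma), and by 0.80 with a pseudocount of 5, short of the minimum. Between mutant and wild type FEA2 differed by -0.79 (adjusted p 0.033). It was called lower there without wild-type replicate 3 (-1.17, adjusted p 0.00074), with quantile normalization (-1.03, adjusted p 0.0071) and with a pseudocount of 0.1 (-1.20, adjusted p 0.026). Among the wild-type libraries FEA2 was lowest in replicate 3, as was MSD3, while every other tested iron gene was lowest in replicate 1. The ferroxidase gene FOX1 and the iron permease gene FTR1, which act together in iron uptake, differed between mutant and wild type by -0.26 (adjusted p 0.15) and -0.42 (adjusted p 0.0066). In the rescued strain relative to the mutant 1 of the 7 rose and 1 fell, against 5.41% and 3.77% of all genes.

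None of the peroxide or iron genes was called between rescued strain and wild type, where 2.31% of all genes were, but 3 genes gained a call in that comparison with 1 library left out. CAT2, at -0.99 (adjusted p 0.00085, limma), was called lower at -1.12 to -1.01 without wild-type replicate 1 or 2 or without rescued replicate 1 or 3. FEA2, at 0.93 (adjusted p 0.027), was called higher at 1.02 to 1.14 without any 1 of the same 4 libraries. FEA1, at -0.79 (adjusted p 0.16), was called lower at -1.29 without rescued replicate 3. With a pseudocount of 0.1 CAT2 was called at -1.28 and FEA2 at 1.23, and with equal sums FEA2 was called at 1.01.

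Of 6 genes listed for transport of manganese and other divalent metals, 5 were tested and none was called between any pair of strains. The percentages of all genes called in either direction were 9.4 for mutant against wild type, 9.18 for rescued strain against mutant and 2.31 for rescued strain against wild type. By the adjusted p alone, 3 were lower in the mutant, against 40.5% of all genes. They were NRAMP1, at -0.45 (adjusted p 0.014), MTP2, at -0.58 (adjusted p 0.00019), and MTP3, at -0.27 (adjusted p 0.025, limma). With median ratios 1 was lower and with quantile normalization 2, but with equal sums of FPKM 4 were higher and none was lower. MTP4 was below the minimum for testing.

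The position of MSD3 was examined through the order of genes in a RefSeq gene table for assembly Chlamydomonas_reinhardtii_v5.5. No member of the family lay within 2 genes of another there. Of the 2 genes on each side of MSD3, 3 were tested, and none was called in any comparison of strains. The nearest tested gene, Cre16.g676200_4532, had 3.83 ± 0.312 FPKM in the rescued strain, 4.18 ± 0.279 FPKM in the mutant and 3.56 ± 0.530 FPKM in the wild type (SD, n = 3 each). On the other side ARP3, an actin-related protein gene, had 5.14 ± 0.400, 4.85 ± 0.631 and 6.56 ± 0.716 FPKM in the same strains.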

How the data were processed

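The authors deposited FPKM for each of 9 libraries and 1 FPKM value per strain. Per the labels, reads were paired, 125 bp long and from polyA RNA. STAR 2.7.10b and Cuffdiff 2.0.2 are named in the submitters' processing notes, without roles, and the genome build and the handling of reads shared between related genes were not stated. Identifiers carry annotation version 6.1. No sequences were used, and coordinates served only to order the genes around each member. Low values between libraries did not settle on 1 step (9.26% to 31.4% of genes within 5% of the most frequent ratio), so depth was not derived and no counting interval was made. The authors' strain values lay within 0.0204% of the replicate means for members other than MSD4, and up to 34.4% from them for MSD4.

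Genes averaging 1 FPKM or more were fitted as log2(FPKM + 1) with limma 3.58.1 in R 4.3.3, with group means over all 9 libraries, trended variance and Benjamini-Hochberg adjustment over 11360 genes. A call needed an adjusted p under 0.05 and a difference of at least 1. MSD4 and other low genes were read from a fit without the minimum. The fit and the permutation test (scipy 1.17.1) were tested on simulated data. Figures were drawn with matplotlib 3.10.9.

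Named genes were the members, list genes called in mutant against wild type or rescued strain against mutant (at most 6 a list), the 6 closest profiles with a symbol and CEHC1. FOX1, FTR1, VTC2, NRAMP1, MTP2, MTP3 and the neighbours of MSD3 were named after their values were seen. The members and lists were chosen with earlier results of these data known, among them the fall of MSD3, so its tests are not independent evidence. Alternatives were pseudocounts of 0.1 and 5, no minimum, a minimum of 5 FPKM, median ratios over genes above 0 in every library with a mean of at least 1, quantile normalization, only the groups compared, the replicate block and each library left out. Equal sums of FPKM and the comparison of MSD3 with FSD1, MSD1 and MSD2 alone were added after the data were seen.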

Additional observations from a re-analysis of the deposited data

How the results depend on the processing

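MSD3 kept its direction and calls under all 18 alternatives, at -4.60 to -3.21 for mutant against wild type (adjusted p 2.1e-06 to 2.7e-05, limma) and 2.62 to 3.95 for rescued strain against mutant. Same-numbered libraries had correlations of deviations from -0.13 to 0.16, and libraries of different numbers from -0.26 to 0.19. These ranges do not settle whether replicate numbers paired the cultures. With the replicate block MSD3 was at -4.19 (adjusted p 1.8e-05) and the counts were 1068, 1044 and 262. Genes called numbered 1068 for mutant against wild type, and 1758, 433, 631 and 2485 with a pseudocount of 0.1, one of 5, a minimum of 5 FPKM and equal sums. They numbered 1043 for rescued strain against mutant, and 550 with a pseudocount of 5 and 1986 with equal sums. For rescued strain against wild type they numbered 262, and 606, 75 and 154 with a pseudocount of 0.1, one of 5 and a minimum of 5 FPKM. Equal sums gave 2405 genes higher and 80 lower in the mutant, where the values as deposited gave 523 and 545, median ratios 668 and 336, and quantile normalization 486 and 238. For rescued strain against mutant these settings gave 185 higher and 1801 lower, 615 and 428, 514 and 478, and 456 and 476.

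Several differences that were short of 1 as deposited changed sign, and the cause was not tested. For mutant against wild type these were MSD1 (0.033 with quantile normalization, 0.14 with equal sums), MSD2 (0.20, 0.35) and MSD5 (0.0014 with a pseudocount of 0.1, 0.070 with median ratios, 0.42 with equal sums, -0.041 to 0.0081 with a library left out). For rescued strain against mutant they were MSD1 (-0.062 with median ratios, -0.50 with quantile normalization, -0.61 with equal sums, -0.0088 to 0.083 with a library left out), MSD2 (-0.37 with quantile normalization, -0.53 with equal sums) and MSD5 (-0.019 with median ratios, -0.33 with equal sums). MSD1 and MSD2 there passed the adjusted p as lower with quantile normalization and with equal sums. FEA1 there gave -0.15 with equal sums and -0.050 to 0.82 with a library left out, and CEHC1 gave -0.016 with equal sums. For rescued strain against wild type MSD5 gave -0.087 with quantile normalization and -0.015 to 0.094 with a library left out, and LCIC1 gave -0.37 to 0.0096. With 1 mutant library left out, MSD3 relative to the other members differed between the mutant and both other strains by -3.83 to -3.27, and the smallest p this allows in an exact permutation test is 0.071. The MSD3 share within the manganese genes alone was 9.26% in the rescued strain, 0.711% in the mutant and 10.3% in the wild type. Shares with a library left out were 3.62% to 4.35%, 0.276% to 0.471% and 4.37% to 5.96% in these strains.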

Other observations

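The ratio of FSD1 to MSD1 FPKM within a library, chosen after the values were seen and given without a test, separated all 3 strains. It was 1.93, 2.02 and 1.79 in the rescued strain. It was 1.19, 1.18 and 1.21 in the mutant, against 1.68, 1.44 and 1.42 in the wild type. The rescued strain had the highest ratio of the 3, so the balance of the chloroplast iron gene and the mitochondrial manganese gene in that strain was on the far side of the wild type from the mutant. The ratio of FSD1 to MSD2 FPKM was 5.56 ± 0.305 in the rescued strain, 3.67 ± 0.250 in the mutant and 5.37 ± 0.636 in the wild type (SD, n = 3 each), where the rescued strain and the wild type overlapped. A ratio within a library does not show which of its 2 genes changed.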
